A study of Homo sapiens with 4 samples.

Results

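Translation initiation and elongation factors are the proteins that load a ribosome onto an mRNA, choose the start codon and then drive the ribosome along the coding sequence. They were taken from the counts table as the protein-coding genes whose symbols begin with EIF1 to EIF6 or EEF, without the EIF2AK kinases, EIF1AY and pseudogenes. The readthrough gene EEF1AKMT4-ECE2, whose transcripts join a member to the next gene, was also left out. This gave 65 genes of 60682 in the table, 51 with an EIF symbol and 14 with an EEF symbol. Transcript levels were measured by RNA-seq of total RNA in JJN3, an established human multiple myeloma line. One group was transduced with a short hairpin RNA (shRNA) against the kinase WNK1 (shWNK1, 2 libraries), and the control group with a hairpin labelled NS (NS, 2 libraries). Both groups are the same cell line grown under one protocol, both carry a hairpin, and the labels give no hairpin sequence and do not state if a replicate is a culture of its own.

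In textbook outline, eIF2 carries the initiator tRNA with GTP, and eIF2B recharges eIF2 with GTP between rounds. eIF3 and the small factors eIF1 and eIF1A hold the 40S subunit open, and eIF4F, made of the cap-binding protein eIF4E, the scaffold eIF4G and the helicase eIF4A, brings the mRNA to it. eEF1A delivers each aminoacyl-tRNA and eEF2 moves the ribosome by one codon. Plasma cells make large amounts of secreted antibody, and their protein synthesis is under close control by eIF2 phosphorylation and by mTORC1, which acts on eIF4E through the 4E-binding proteins.

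The libraries held 16973521 to 20164122 counts. WNK1 had 4911 and 4148 counts under the NS hairpin but 325 and 403 under the WNK1 hairpin, so the targeted transcript was lower where the labels say it should be (log2 fold change -3.80, adjusted p = 4.16e-25 by edgeR's quasi-likelihood test with Benjamini-Hochberg adjustment over all genes). All 7 plasma cell markers examined were detected, with a summed level of 1474 and 1506 CPM (counts scaled to TMM-adjusted library sizes) in the shWNK1 and 1815 and 1763 CPM in the NS libraries. Within this list SDC1 (log2 -1.32, adjusted p = 3.28e-16), MZB1 (-0.98), CD38 (-0.60), IRF4 (-0.23) and XBP1 (-0.17) fell, PRDM1 rose (0.25) and TNFRSF17 did not pass (0.0865, and 0.0485 without NS replicate 1). The calls on IRF4, PRDM1, CD38 and XBP1 ended with shWNK1 replicate 1 left out (adjusted p = 0.125, 0.0575, 0.0829 and 0.208), and those on CD38 and XBP1 also with replicate 2 left out (0.054 and 0.174). Sums for markers of mature B cells (2.98 to 8.15 CPM), T and NK cells (0.0973 to 0.65), myeloid cells (0.344 to 0.821) and erythroid cells (0.0973 to 0.473) were low, with MS4A1, CD3D, LYZ and HBB at 0 in every library. The stromal and epithelial sum was 109 to 126 CPM, which came almost wholly from EPCAM, while COL1A2 and KRT19 were at 0. The part of these marker levels in the results was not tested. In bulk RNA, fewer cells with a transcript and less transcript per cell cannot be told apart.

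Of the 65 members, 62 had enough counts to be tested. Among them 29 fell, 7 rose and 26 did not pass the test (adjusted p under 0.05). These are 46.8% and 11.3% of the tested members, beside 20.2% of all 14864 tested genes that fell and 18.5% that rose (38.8% called in either direction, and 58.1% of members). The median log2 fold change of the members was -0.19, beside 0.005 for all tested genes. Members are well expressed, so the same shares were taken among genes averaging 50 CPM or more. There 25 of 43 members fell (58.1%) and 5 rose (11.6%), beside 35.4% and 22.0% of 4657 genes, with medians of -0.190 and -0.063. The changes were small: 2 members, EIF4G2 and EIF5AL1, were called and past 1.5-fold (3.23% of those tested), beside 14.9% of all genes.

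The members' shift was alike in each pairing of libraries. The median difference of a shWNK1 library from an NS library was -0.17, -0.20, -0.19 and -0.20 on the log2 scale in the 4 pairs. The groups of libraries did not overlap for 53 of the 62 tested members (85.5%), beside 68.4% of all genes, and for 44 of these both shWNK1 libraries were the lower. Together the members made up 2.84% of the raw counts of each NS library and 2.68% and 2.71% of those of the shWNK1 libraries, without TMM scaling. The number of calls was smaller with either shWNK1 library left out, where the lone library is assumed to vary like the other group. Leaving out shWNK1 replicate 1 left 18 falls and 3 rises, and leaving out replicate 2 left 19 and 3. In the remaining paragraphs, a call is said to have held where it kept its direction and its side of the threshold in all 10 alternative analyses, which include leaving out each library, and 19 of the 36 calls did (16 falls and 3 rises).

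**Figure D1:**
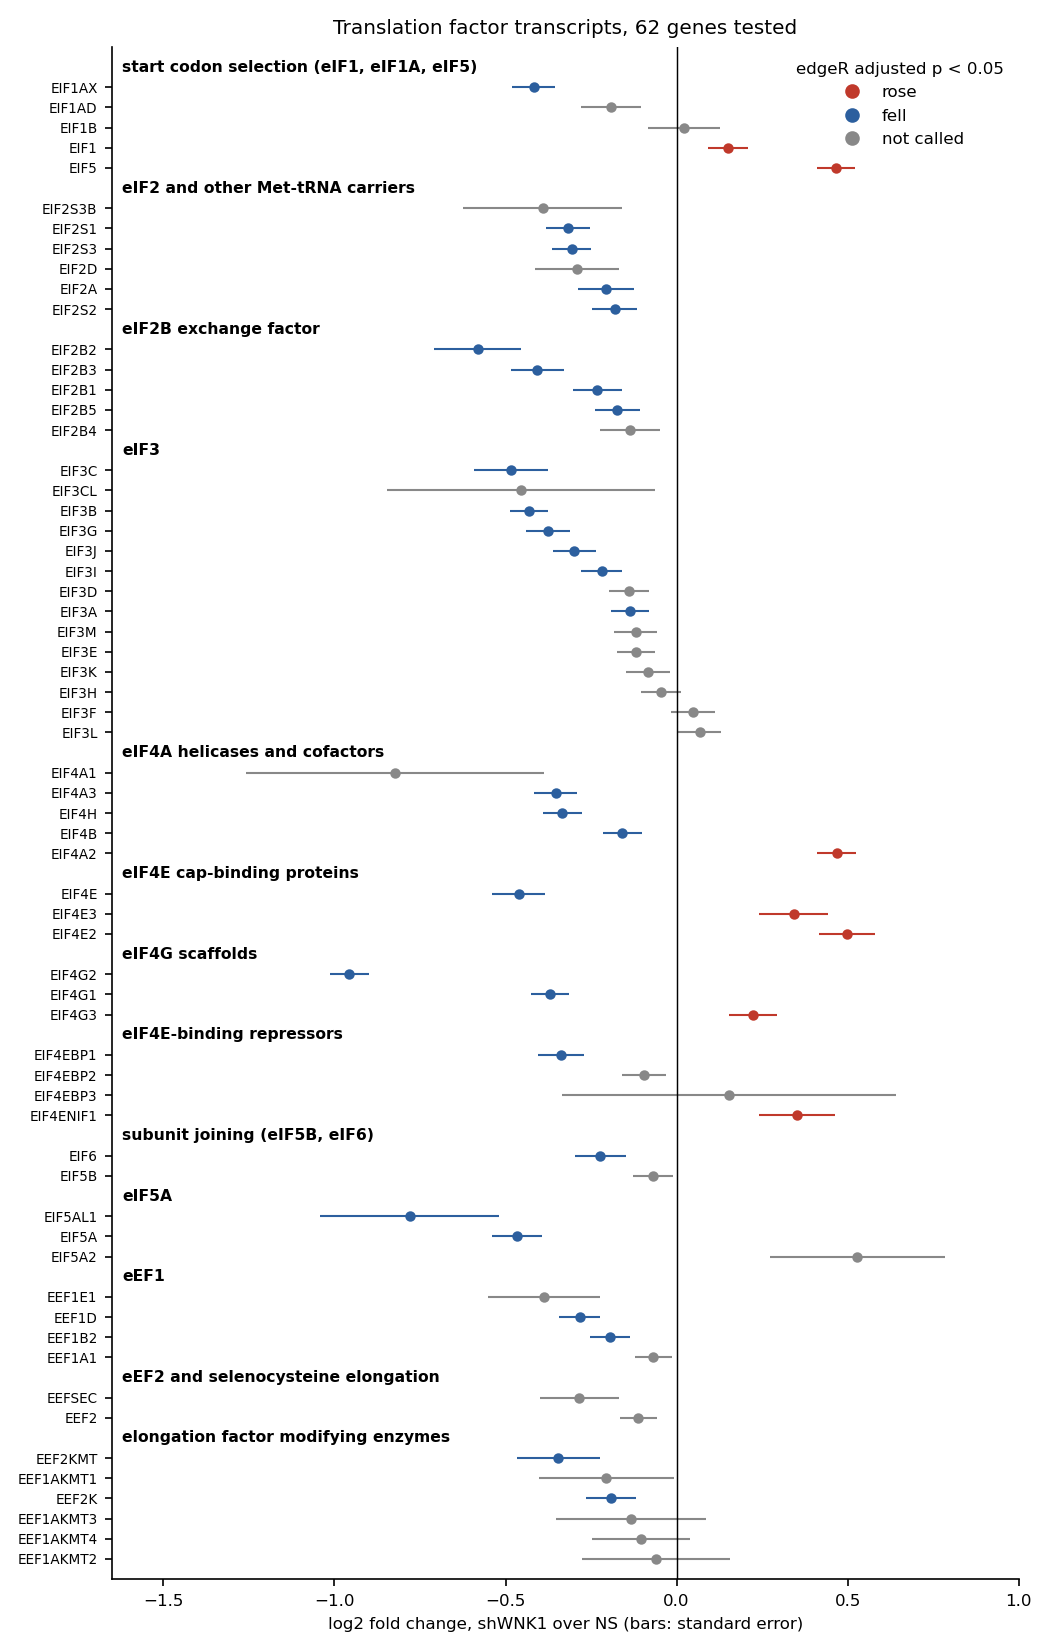
Log2 fold change of each tested member (x axis, shWNK1 over NS, with the standard error as a bar) by factor group, coloured by the edgeR call at an adjusted p of 0.05. Most points lie left of 0, and the 7 rises are EIF1, EIF5, EIF4A2, EIF4E2, EIF4E3, EIF4G3 and EIF4ENIF1; EIF4A1, whose coding transcript is wholly shared with other genes, is plotted with 15 to 52 counts a library.

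**Figure D2:**
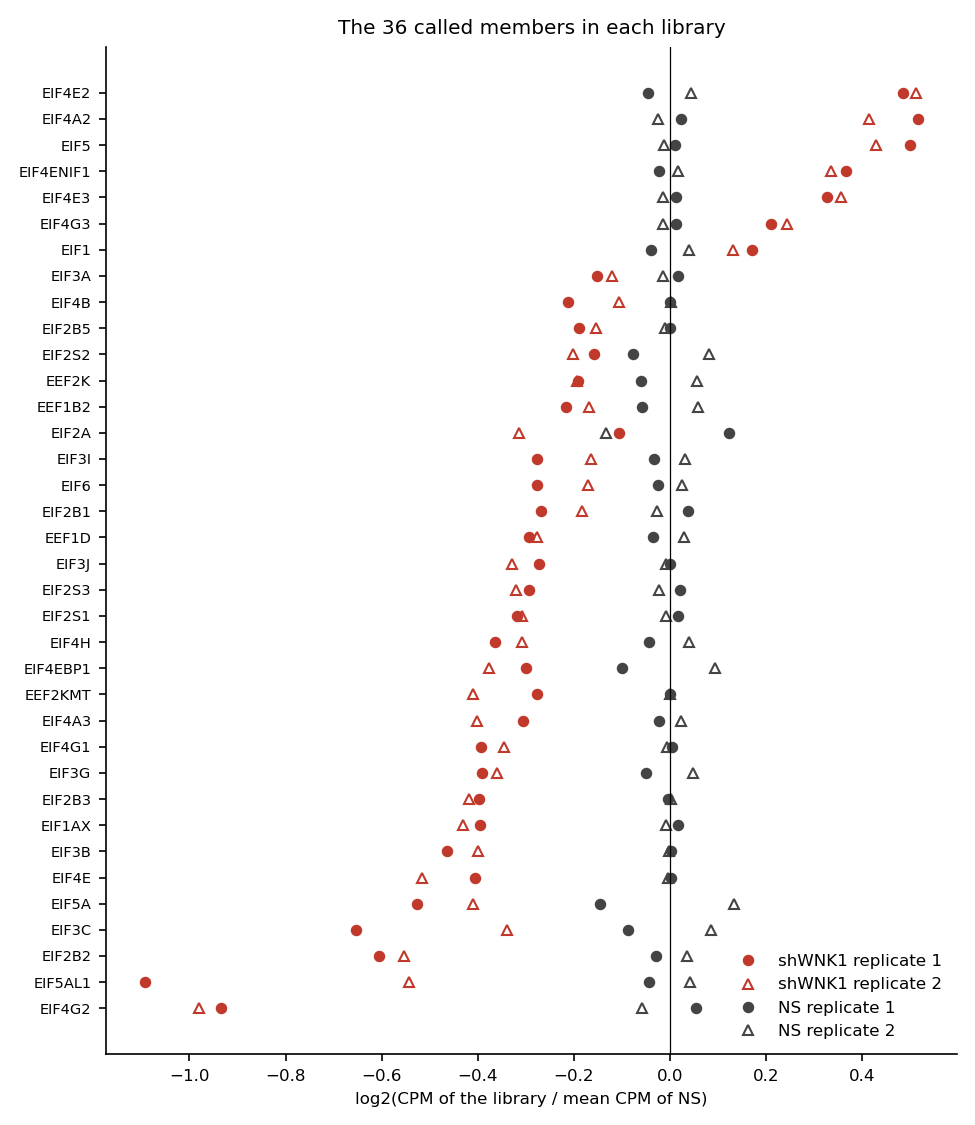
The 36 called members (y axis) in each library, as the log2 ratio of its CPM to the mean CPM of the NS libraries (x axis). The shWNK1 symbols lie to one side of the NS symbols for every gene shown except EIF2A, where shWNK1 replicate 1 (105 CPM) lies above NS replicate 2 (103 CPM).

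Levels per length (TPM, counts divided by the exonic length in the table and scaled to the same total in each library) differed widely between members. In the NS libraries EEF1A1, the tRNA-delivering eEF1A of most cells, stood highest at 7220.0 ± 174 TPM (SD, n = 2), followed by the translocase EEF2 at 2524 ± 42.0 and EEF1B2, a subunit of the eEF1A exchange factor, at 1043 ± 39.5. The highest initiation factor was EIF4H, a stimulator of eIF4A, at 942 ± 20.7 TPM, and its spread did not reach that of EEF1B2. EIF4EBP1 (805 ± 61.8), EIF4G1 (636 ± 15.1), EIF3I (622 ± 7.28), EIF5A (603 ± 71.1) and EIF4G2 (581 ± 43.0) came next. The last 4 of these neighbours overlapped in their spread. EIF4G2 was at 310.5 ± 9.15 TPM in the shWNK1 libraries.

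Some members share exon bases with other genes, and the recorded counting command does not ask for fragments over several genes to be counted. How far this set their counts was not tested. EEF1G, a structural subunit of eEF1 that is abundant in dividing cells, had 0 counts in all 4 libraries. Of the bases of its longest coding transcript, 99.9% lie in exons of another gene on the same strand, ENSG00000255508, which itself had 80, 62, 76 and 99 counts. EIF4A1, the main eIF4A helicase of dividing cells, had 44 and 15 counts under the WNK1 hairpin and 44 and 52 under the NS hairpin, and 100% of the bases of its coding transcript are shared, with 2 other genes. The fitted log2 fold change of EIF4A1 was -0.82 (adjusted p = 0.139). EIF4EBP3 shared 73.4% and EIF3L 62.8% of their transcript, and EIF3L still had 2676 to 3426 counts. Sharing over 20% of the coding transcript was found for 15 members, and 35 members shared no base of it. Over all exons used in counting, 8 members shared more than 20% and 27 shared no base. Near-identical copies also make the counts of EIF3C and EIF3CL, EIF2S3B and EIF5AL1 uncertain. Leaving out the members with over 20% sharing and these 4 copies, 20 fell and 6 rose of 44 tested, with a median of -0.18. These are 45.5% and 13.6%, beside 20.2% and 18.5% of all tested genes. This subset is not free of copied sequence. It keeps EIF2S3, of which EIF2S3B is a copy, and members with processed pseudogenes, such as EEF1A1. The effect of such copies on the counts was not tested. EIF4E1B, an oocyte form of eIF4E, also had 0 counts in every library, without any shared base, and EEF1A2, the eEF1A of muscle and neurons, had 16 and 8 counts under the WNK1 hairpin and 10 and 6 under the NS hairpin. A count of 0 allows up to 3 counts, or 0.146 to 0.1773 CPM, for counting error only.

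**Figure D3:**
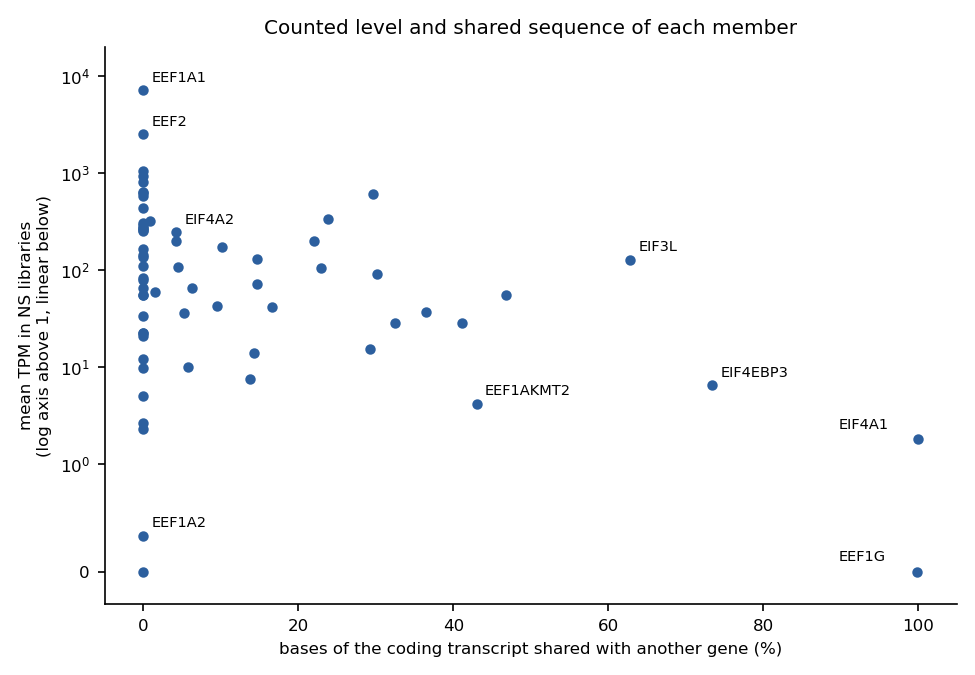
Mean TPM in the NS libraries (y axis, logarithmic above 1 and linear below) against the percentage of bases of the longest coding transcript that lie in exons of another gene (x axis), 1 point per member. EIF4A1 and EEF1G, at 100% and 99.9%, lie at or near 0 TPM, while members with little sharing span the whole range.

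The eIF4A, eIF4E and eIF4G families, which include the subunits of eIF4F and their relatives, held the largest fall and 4 of the 7 rises. Of 5 eIF4A helicases and cofactors 3 fell and 1 rose. Of 3 tested cap-binding proteins 1 fell and 2 rose, and of 3 scaffolds 2 fell and 1 rose. These are small lists, to be read beside 20.2% of all tested genes that fell and 18.5% that rose. EIF4G2 (also called DAP5, a relative of the scaffold eIF4G that lacks the eIF4E-binding part; chromosome 11, 10797050 to 10808940) was at 759 and 736 CPM in the shWNK1 libraries and at 1507 and 1394 CPM in the NS libraries. Both shWNK1 libraries lay far below both NS libraries, a 1.94-fold fall (log2 -0.96, SE 0.057, edgeR adjusted p = 6.15e-15). The main scaffold EIF4G1 was at 1176 and 1216 CPM against 1550.0 and 1539 CPM, and fell 1.29-fold (log2 -0.37, SE 0.055, adjusted p = 1.74e-06). Its paralog EIF4G3 moved the other way, from 96.3 and 94.6 to 110.5 and 113 CPM (log2 0.22, SE 0.070, adjusted p = 0.0109). The EIF4G3 call ended without shWNK1 replicate 1 (adjusted p = 0.0874) or replicate 2 (0.157). Per kilobase, EIF4G2 made up 36.8% and 35.3% of the EIF4G transcripts counted in shWNK1 libraries and 47.3% and 45.6% in NS libraries. EIF4G3 made up 7.48% and 7.38% of EIF4G1 plus EIF4G3, against 5.08% and 5.02%.

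The cap-binding proteins were split in the same manner. EIF4E, the cap-binding protein of eIF4F, was at 69.5 and 64.4 CPM in the shWNK1 and 92.3 and 91.9 CPM in the NS libraries, a 1.38-fold fall (log2 -0.46, SE 0.077, edgeR adjusted p = 1.18e-05). EIF4E2 (4EHP), which binds caps without recruiting eIF4G and acts in repression, was at 76.1 and 77.6 against 52.7 and 56.1 CPM, a 1.41-fold rise (log2 0.50, SE 0.082, adjusted p = 8.4e-06). EIF4E3, another family member, was at 40.0 and 40.8 against 32.2 and 31.6 CPM (log2 0.34, adjusted p = 0.00668; 0.0564 without shWNK1 replicate 1 and 0.0924 without shWNK1 replicate 2). In none of the 3 did the groups overlap. Per kilobase, EIF4E made up 24.4% and 22.7% of the 3 transcripts in shWNK1 and 37.3% and 36.3% in NS libraries, while EIF4E2 made up 57.3% and 58.7% against 45.7% and 47.5%. Of the EIF4E2 coding transcript of GENCODE v29, 32.5% is shared, chiefly with the opposite-strand gene TIGD1. The EIF4E2 exons used in counting share no base with TIGD1. They share 18.2% of their bases with the opposite-strand gene ENSG00000237126, which had 6 to 14 counts, and strand was not used in counting. Counts were made per gene, so these shares are of whole genes. The length used is that of all exons of a gene, 14067 bases for EIF4E and 6555 for EIF4E2. The order of the shares depends on these lengths, since by CPM EIF4E stood above EIF4E2 in both NS libraries.

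Among eIF4A helicases, EIF4A2 rose. It was at 641 and 597 CPM in shWNK1 and at 455 and 440.1 CPM in NS libraries (chromosome 3, 186783205 to 186789897; log2 0.47, SE 0.058, edgeR adjusted p = 6.54e-08), with the groups well apart. No share of EIF4A1 and EIF4A2 is given, since EIF4A1 had so few counts and a wholly shared transcript. EIF4A3, the helicase of the exon junction complex, fell from 182 and 188 to 149.6 and 140.0 CPM (log2 -0.35). The eIF4A cofactors both fell, EIF4H from 859 and 910.2 to 688 and 715 CPM (log2 -0.33) and EIF4B from 606 and 607 to 523 and 563 CPM (log2 -0.16, adjusted p = 0.0259). The EIF4B call ended without shWNK1 replicate 1 (adjusted p = 0.46) or replicate 2 (0.0841), with upper-quartile factors (0.0945) and with the replicate number as a block (0.0519).

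The 4E-binding repressors went both ways. EIF4EBP1, which sequesters eIF4E until mTORC1 phosphorylates it, was at 169.9 and 161 CPM in shWNK1 and 195 and 223 CPM in NS libraries, a 1.26-fold fall (log2 -0.34, SE 0.067, edgeR adjusted p = 0.000134). EIF4EBP2 was at 166 and 163 against 182 and 169 CPM and did not pass the test (adjusted p = 0.249). EIF4ENIF1 (4E-T), which takes eIF4E into the nucleus and into decay bodies, rose from 24.8 and 25.5 to 32.5 and 31.8 CPM (log2 0.35, adjusted p = 0.0112; 0.103 without shWNK1 replicate 1 and 0.0806 without shWNK1 replicate 2). EIF4EBP3, at 1.11 to 1.54 CPM in the 4 libraries, did not pass (0.84).

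**Figure D4:**
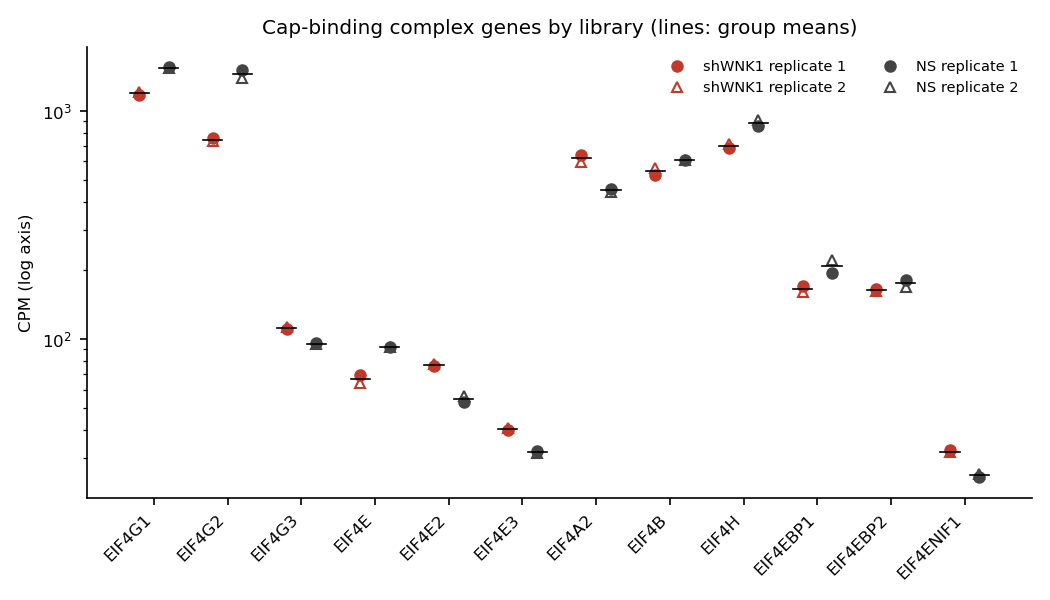
CPM of 12 genes of the cap-binding complex and its regulators (y axis, logarithmic) in each of the 4 libraries, with group means as lines. EIF4G2, EIF4G1, EIF4E, EIF4H, EIF4B, EIF4EBP1 and EIF4EBP2 lie lower in both shWNK1 libraries, though EIF4EBP2 did not pass the test. EIF4G3, EIF4E2, EIF4E3, EIF4A2 and EIF4ENIF1 lie higher.

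Factors of start codon selection also split. EIF5, the GTPase activator that makes eIF2 hydrolyse its GTP at a start codon, was at 1002 and 954 CPM in the shWNK1 and 714 and 703 CPM in the NS libraries, a 1.38-fold rise (chromosome 14, 103333544 to 103345025; log2 0.46, SE 0.056, edgeR adjusted p = 3.9e-08). EIF1, which guards against initiation at wrong codons, was at 371 and 361 against 321 and 339 CPM (log2 0.15, adjusted p = 0.0383), a small rise whose call ended without either shWNK1 library (0.318 without replicate 1, 0.204 without replicate 2) or NS replicate 1 (0.0995), with DESeq2 (0.0737), without the low-count filter (0.0876) and with the replicate block (0.0701). Its paralog EIF1B showed overlapping groups, at 32.0 and 35.9 against 33.0 and 33.9 CPM (adjusted p = 0.893). EIF1AX, the eIF1A gene of the X chromosome, fell from 177 and 174 to 133 and 129.9 CPM (log2 -0.42, SE 0.064, adjusted p = 2.72e-06). EIF1AD, a relative of eIF1A that acts in 40S maturation, stood at 49.0 and 46.8 against 55.5 and 54.0 CPM (adjusted p = 0.081).

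All 3 subunits of eIF2 were called as falls, though not all of these calls held. Together with EIF2A, EIF2D and EIF2S3B, 4 of 6 genes fell (66.7%). This stands beside 20.2% of all tested genes and 35.4% of those averaging 50 CPM or more. EIF2S1, the alpha subunit that stress kinases phosphorylate, went from 174 and 171 to 138 and 139 CPM (log2 -0.32, SE 0.063, edgeR adjusted p = 0.000135). EIF2S3, the GTP-binding gamma subunit, went from 332 and 322 to 267 and 262 CPM (log2 -0.31, SE 0.058, adjusted p = 6.73e-05). EIF2S2, the beta subunit, went from 182 and 203 to 172 and 167 CPM (log2 -0.18, adjusted p = 0.0251). The calls on EIF2S1 and EIF2S3 held, and that on EIF2S2 ended without either shWNK1 library (0.155 without replicate 1, 0.252 without replicate 2) or NS replicate 2 (0.224), and in 3 other settings (0.0543 to 0.0814). EIF2A and EIF2D are other carriers of initiator tRNA. EIF2A overlapped between groups, at 105 and 90.9 against 123 and 103 CPM, and its call (log2 -0.21, adjusted p = 0.0476) ended without either shWNK1 library (0.0538 without replicate 1, 0.52 without replicate 2) or NS replicate 1 (0.464), with upper-quartile factors (0.112) and with DESeq2 (0.127). EIF2D, at 22.1 and 25.4 against 26.4 and 31.9 CPM, missed the threshold (0.0579) and passed it without NS replicate 1 (0.0044). EIF2S3B, a copy of EIF2S3, was at 4.38 to 8.09 CPM and did not pass.

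In eIF2B, the 5-subunit exchange factor of eIF2, 4 of 5 subunits fell and 0 rose, with a median of -0.23. With 5 genes this is a small list. Falls made up 20.2% of all tested genes and 35.4% of those averaging 50 CPM or more. EIF2B2 showed the largest fold, from 24.0 and 25.1 to 16.1 and 16.7 CPM (log2 -0.58, SE 0.127, edgeR adjusted p = 0.000414). Per length it was also the lowest of the 5, at 15.3 ± 0.214 TPM in NS libraries beside 104 ± 5.86 TPM for EIF2B1. EIF2B3 fell from 83.6 and 83.9 to 63.6 and 62.7 CPM (log2 -0.41, SE 0.078, adjusted p = 7.49e-05). These 2 calls held. EIF2B1 (log2 -0.23, adjusted p = 0.00987) and the catalytic EIF2B5 (log2 -0.17, adjusted p = 0.0357) lost theirs without shWNK1 replicate 1 (0.209 and 0.291) or replicate 2 (0.0507 and 0.157). EIF2B5 also lost it in 4 other settings (0.0525 to 0.107). EIF2B4, at 53.9 and 49.7 against 54.8 and 58.9 CPM, did not pass (0.23). Of the EIF2B2 coding transcript 29.3% and of that of EIF2B1 22.9% is shared, for the most part with opposite-strand genes.

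Of 14 eIF3 genes, 6 fell, 0 rose and 8 did not pass, with a median of -0.14. The falls are 42.9% of these genes, beside 20.2% of all tested genes and 35.4% of those averaging 50 CPM or more. EIF3B, a core subunit, fell from 1166 and 1164 to 844 and 883 CPM (log2 -0.43, SE 0.055, edgeR adjusted p = 1.32e-07), and EIF3G, its RNA-binding partner, from 171 and 183 to 135 and 138 CPM (log2 -0.38, SE 0.064, adjusted p = 1.61e-05). EIF3I, another subunit that binds EIF3B, fell from 309 and 323 to 261 and 282 CPM (log2 -0.22, adjusted p = 0.00369; 0.218 without shWNK1 replicate 1). EIF3J, a loosely bound subunit, fell from 186 and 185 to 154 and 148 CPM (log2 -0.30, adjusted p = 0.000242). EIF3A, the largest core subunit, was at 609 and 623 against 685 and 670.1 CPM (log2 -0.14, adjusted p = 0.0489), a call that ended without shWNK1 replicate 1 (0.391) or replicate 2 (0.23) and in 3 other settings (0.0564 to 0.165). EIF3C (log2 -0.48, adjusted p = 0.000478) lost its call without shWNK1 replicate 1 (0.0755). The remaining subunits did not pass the test. EIF3D, EIF3E, EIF3H, EIF3K and EIF3M were lower in both shWNK1 libraries than in either NS library. EIF3L was higher in both, and EIF3F overlapped between groups. EIF3F (log2 0.05), EIF3L (0.07), EIF3H (-0.05), EIF3K (-0.08), EIF3E (-0.12), EIF3M (-0.12) and EIF3D (-0.14) had adjusted p of 0.0562 to 0.599, and EIF3CL was too low to read. EIF3D passed without NS replicate 1 (0.00504) and with RLE factors (0.0499), and EIF3E passed without NS replicate 2 (0.0475).

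EIF6, which keeps 60S subunits from joining too early, went from 94.0 and 97.3 to 78.9 and 84.9 CPM (log2 -0.22, edgeR adjusted p = 0.0172, or 0.279 and 0.0567 with shWNK1 replicate 1 or 2 left out). EIF5B, the GTPase of subunit joining, was at 277 and 291 against 299 and 298 CPM and did not pass (0.37). EIF5A, which carries the modified lysine hypusine and helps the ribosome through difficult peptide bonds and at termination, fell from 431 and 523 to 331 and 359 CPM (log2 -0.47, SE 0.073, adjusted p = 2.28e-05). The NS libraries of EIF5A differed from each other, but both stood above both shWNK1 libraries, and the call held with log2 values of -0.60 to -0.32 over the alternatives. Its coding transcript shares 29.7% of its bases, with the opposite-strand gene GPS2. The paralog EIF5A2 stood the other way at a far lower level, 5.45 and 5.35 against 3.17 and 4.31 CPM (log2 0.53, adjusted p = 0.104; 0.0467 without NS replicate 2). It made up 0.791% and 0.717% of the pair per kilobase in shWNK1 libraries and 0.355% and 0.398% in NS libraries. EIF5AL1, an EIF5A copy, was at 2.69 and 3.94 against 5.57 and 5.91 CPM (log2 -0.78, adjusted p = 0.0176; 0.0568 without NS replicate 2, 0.075 with DESeq2, 0.231 without shWNK1 replicate 1).

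The 12 tested genes with an EEF symbol, 6 of which encode enzymes that modify elongation factors, held 4 falls (33.3%, beside 20.2% of all genes) and 0 rises, with a median of -0.19. Of the 4 falls 2 were eEF1 subunits and 2 were modifying enzymes. EEF1A1 was at 10964 and 11219.8 CPM in shWNK1 and 11677 and 11589 CPM in NS libraries, and did not pass the test (log2 -0.07, SE 0.054, edgeR adjusted p = 0.34). Its share of the raw counts of a library, which are without the TMM scaling of the CPM, was 1.13% to 1.14% in all 4. EEF2 was at 2698 and 2833 against 2983 and 2992 CPM (log2 -0.11, adjusted p = 0.107; 0.0296 without NS replicate 1). The exchange factor subunits of eEF1 were lower: EEF1D at 208 and 210.5 against 249 and 260.1 CPM (log2 -0.28, SE 0.060, adjusted p = 0.00027), a call that held, and EEF1B2 at 506 and 523 against 565 and 612 CPM (log2 -0.19, adjusted p = 0.00761; 0.218 without shWNK1 replicate 1 and 0.0869 without shWNK1 replicate 2). Of the EEF1D coding transcript 30.2% is shared with an opposite-strand gene. EEF1E1, despite its symbol a scaffold protein of the tRNA synthetase complex, overlapped between groups, with 20.1 and 15.3 against 18.6 and 27.4 CPM (adjusted p = 0.0673). It passed without NS replicate 1 (3.63e-05) and shWNK1 replicate 1 (0.0419), and without the low-count filter (0.0165). EEFSEC, the elongation factor for selenocysteine, was at 23.0 and 24.7 against 30.4 and 27.8 CPM (log2 -0.28, adjusted p = 0.0509), and passed without NS replicate 2 (0.0277) and with RLE factors (0.0481).

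The 2 falls among the 6 modifying enzymes were EEF2K and EEF2KMT. EEF2K, the kinase that inhibits eEF2, was at 88.4 and 88.3 against 96.8 and 105 CPM (log2 -0.19, edgeR adjusted p = 0.038), and its call ended without either shWNK1 library (0.225 without replicate 1, 0.207 without replicate 2) or NS replicate 2 (0.192) and in 3 other settings (0.0572 to 0.103). EEF2KMT, a methyltransferase of eEF2, was at 21.7 and 19.8 against 26.3 and 26.3 CPM (log2 -0.35, adjusted p = 0.0224; 0.0697 without shWNK1 replicate 1, 0.226 without shWNK1 replicate 2 and 0.0765 with DESeq2), and 41.1% of its coding transcript is shared with the opposite-strand gene ALG1. The eEF1A methyltransferases EEF1AKMT1 to EEF1AKMT4 stood at 5.55 to 16.1 CPM over the 4 libraries, and none passed (adjusted p 0.445 to 0.858).

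What the members share beyond their names was read from their sequences, as a description with no test. Transcripts whose first base is a C followed by a run of pyrimidines, the 5′ terminal oligopyrimidine (TOP) tract, are known to be translated under mTORC1 control, and the genes for elongation factors are the textbook examples besides ribosomal proteins. A tract of at least 5 pyrimidines beginning with C within 1 base of an annotated start was found for 16 of 50 tested members with a RefSeq promoter entry (32.0%), beside 13.4% of 10536 tested genes. The following windows run from 10 bases before the annotated start to 20 bases of the transcript (RefSeq, GRCh38.p14). They read 5′ to 3′ on the gene's strand, with the tract in capitals. Shown are the elongation factors EEF1A1, EEF2 and EEF1B2, and also EIF3F and EIF3K, which were not called. EIF4A2, which rose, and EIF2S3 and EIF4G2, which fell, are shown as well. The elongation factor genes EEF1G and EEFSEC had no tract, and EEF1D had no promoter entry. EIF4G2 and EEF1B2 each have the tract at 1 of their 2 annotated starts.
EEF1A1 (chr6:73521013-73521042, minus strand): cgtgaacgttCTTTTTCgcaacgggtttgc
EEF2 (chr19:3985444-3985473, minus strand): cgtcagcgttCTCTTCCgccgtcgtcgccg
EEF1B2 (chr2:206159885-206159914, plus strand): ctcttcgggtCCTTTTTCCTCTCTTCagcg
EIF3F (chr11:7987327-7987356, plus strand): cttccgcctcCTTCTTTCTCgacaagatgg
EIF3K (chr19:38619178-38619207, plus strand): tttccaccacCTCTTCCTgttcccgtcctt
EIF4A2 (chr3:186783567-186783596, plus strand): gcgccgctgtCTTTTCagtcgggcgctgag
EIF2S3 (chrX:24054946-24054975, plus strand): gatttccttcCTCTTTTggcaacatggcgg
EIF4G2 (chr11:10807977-10808006, minus strand): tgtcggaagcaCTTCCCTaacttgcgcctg
EIF3B (chr7:2354817-2354846, plus strand, no tract, fell): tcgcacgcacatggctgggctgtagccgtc
Members with a tract had a median log2 fold change of -0.13, with 5 falls, 2 rises and 9 not called, and the 34 without had a median of -0.23, with 18 falls, 5 rises and 11 not called. Over all tested genes, 24.5% of those with a tract fell and 20% rose, against 21.9% and 20.5% of those without, with medians of -0.03 and 0.01. The tract is a match of letters near an annotated start, and starts used in these cells were not measured.

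The E-box CACGTG, the palindromic 6-base word that MYC and related factors bind, was searched from 250 bases before to 50 bases after each annotated start. It was present for 14 of the 50 tested members (28.0%), beside 12.6% of tested genes and 8.77% of all genes in the promoter table. Of these 14, 7 fell, 0 rose and 7 did not pass, with a median of -0.17, and of the 36 without it 16 fell, 7 rose and 13 did not pass, with a median of -0.20. Over all tested genes, 27.3% of those with the word fell and 20.2% rose, against 21.5% and 20.5% of those without, with medians of -0.05 and 0.01. The windows of 4 members that fell and whose calls held are shown with the word in capitals. EIF2B3 also has the word, and its fall held too, but its window is not shown.
EIF4E (chr4:98929341-98929370, minus strand): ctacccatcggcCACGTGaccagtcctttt
EIF4G1 (chr3:184314450-184314479, plus strand): ggctgtggctgtCACGTGacggggcggggg
EIF4A3 (chr17:80147232-80147261, minus strand): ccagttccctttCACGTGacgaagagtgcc
EIF4H (chr7:74174145-74174174, plus strand): acgccgccgcacCACGTGggctgcagagcg
The word begins 225 bases before the annotated start in EIF4E, 121 in EIF4A3 and 199 in EIF4H. In EIF4G1 it begins 144 bases before the first annotated start, and the windows of the other annotated EIF4G1 starts lack it. None of the 7 rising members has it in this window at any annotated start, which says only that these letters are not there.

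The 6-base word AGTATC in 3′ UTRs had been found, in an earlier look at these data, to be more frequent among genes that fell, so its distribution here is no independent result. The annotated 3′ UTRs of GENCODE v29 held it, on the transcript strand, in 12 of 62 tested members (19.4%) and in 24.9% of 11863 tested genes. Of the 12 carriers 8 fell (EIF4G2, EIF4E, EIF1AX, EIF2B2, EIF2B3, EIF3A, EIF3J and EIF4B), 1 rose (EIF4E3) and 3 did not pass (EIF3K, EIF4EBP2 and EEFSEC). Of the 50 others 21 fell, 6 rose and 23 did not pass. Over all tested genes, 33.2% of carriers fell and 16.5% rose, against 20.5% and 22.5% of the others. The medians were -0.29 for carriers and -0.19 for the others, and carriers had longer 3′ UTRs (median 2177 bases beside 625). Over all tested genes the medians were -0.10 and 0.02, and the lengths 3002 and 1013 bases. The sites of the 5 carriers with the largest falls are shown with 12 bases on each side.
EIF4G2 (chr11:10797596-10797625, minus strand): aaatattttaggAGTATCtttaatgtttag
EIF2B2 (chr14:75012111-75012140, plus strand): tgaggaggggtaAGTATCagaaagagagaa
EIF4E, site nearer the end (chr4:98874234-98874263, minus strand): attttcttcagcAGTATCaagtggcactta
EIF4E, site nearer the stop codon (chr4:98879867-98879896, minus strand): aattgaataggtAGTATCatatatatggaa
EIF1AX (chrX:20125545-20125574, minus strand): attgacagctaaAGTATCagaatgaaagca
EIF2B3 (chr1:44850591-44850620, minus strand): cccagtcctgaaAGTATCcctcacctaaaa

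**Figure D5:**
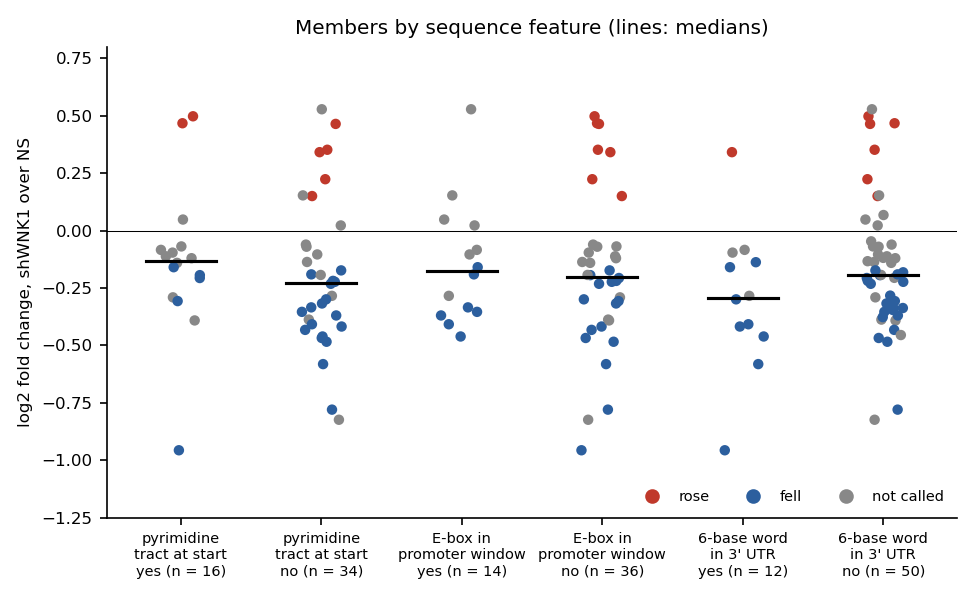
Log2 fold change (y axis, shWNK1 over NS) of tested members with and without a pyrimidine tract at the start, the E-box in the promoter window and the 6-base word in the 3′ UTR, coloured by call, with medians as lines. Members with a tract have a median of -0.13 and those without -0.23, carriers of the 3′ UTR word -0.29 and others -0.19, and the ranges overlap in each pair.

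Other genes of translation and its control, 63 in 7 lists, went both ways. Of 62 tested, 19 fell (30.6%) and 14 rose (22.6%), beside 20.2% and 18.5% of all genes, with a median of -0.06. The lists that follow hold 4 to 15 tested genes each, and their counts are to be read against the same shares. Leaving out shWNK1 replicate 1 left 6 rises, and leaving out replicate 2 left 5 rises and 11 falls. Among 11 eIF2 kinases, phosphatase subunits and partners, 4 rose and 3 fell. EIF2AK2 (PKR), the kinase activated by double-stranded RNA, fell from 112 and 107 to 52.6 and 56.3 CPM (log2 -1.01, edgeR adjusted p = 3.08e-12), and the phosphatase catalytic subunit PPP1CC fell by 0.49. PPP1R15A (GADD34), which directs the phosphatase to eIF2, rose from 17.8 and 17.4 to 25.1 and 29.9 CPM (log2 0.64, adjusted p = 0.000112), and PPP1R15B rose by 0.27 (adjusted p = 0.00172; 0.0799 without shWNK1 replicate 1). Among 15 genes of mTORC1, MNK and PDCD4 control, 5 rose and 3 fell. LARP1, which binds TOP mRNAs, fell from 659 and 648 to 368 and 391 CPM (log2 -0.78, adjusted p = 8.06e-13), and MKNK1, a kinase of eIF4E, from 44.0 and 37.3 to 21.8 and 21.6 CPM (log2 -0.91). Of the mTORC1 subunits in this list, AKT1S1 (log2 0.55) and RPTOR (0.35) rose. The other subunits, the kinase itself among them, did not pass the test.

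Of 4 tested poly(A)-binding proteins and partners, 2 rose and 1 fell. PAIP2, an inhibitor of the poly(A)-binding protein, rose by 0.32 on the log2 scale (edgeR adjusted p = 0.00446; 0.0667 without NS replicate 1, 0.107 without shWNK1 replicate 1) and PAIP1 by 0.22 (0.00953; 0.141 and 0.0868 without shWNK1 replicate 1 and 2). PABPC4 fell by 0.20 (0.0058; 0.219 and 0.0696 without shWNK1 replicate 1 and 2). Of 5 scanning helicases and eIF5 mimics 2 fell, BZW2, an eIF5 mimic (log2 -0.62), and the helicase DHX36 (-0.42; adjusted p = 0.0645 without shWNK1 replicate 2). Of 9 termination and recycling genes 4 fell, among them the release factors ETF1 (-0.31) and GSPT1 (-0.27), and HBS1L, a factor of ribosome rescue, rose (0.22, adjusted p = 0.0243; 0.2 and 0.129 without shWNK1 replicate 1 and 2, and 0.0756 with DESeq2). Of 9 enzymes of hypusine and diphthamide, the modified residues of eIF5A and eEF2, 4 fell and 0 rose, with DPH5 (-0.37) and DPH6 (-0.54) as the smallest p. Both lost the call without shWNK1 replicate 2 (0.139 and 0.232), DPH5 also without NS replicate 2 (0.105). Of 9 mitochondrial translation factors GFM1 (-0.40) and TUFM (-0.21) fell, and MTIF3 (0.64) and MTRF1 (0.40) rose. TUFM lost its call without either shWNK1 library (0.119 and 0.0896) and MTIF3 without shWNK1 replicate 2 (0.253). The call on MTRF1 (adjusted p = 0.0475) ended with any 1 library left out (0.0534 to 0.277), with DESeq2 (0.161), without the low-count filter (0.0879) and with the replicate block (0.0634).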

How the data were processed

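JJN3 libraries were grouped by the treatment label, 2 for shWNK1 and 2 for NS. The deposited values are raw counts per gene. Per the file headers, the authors used featureCounts v2.0.0 with GENCODE v34, ignoring strand, asking for a mapping quality of 20 or more and for both ends of a pair to map without chimeras. The recorded command does not ask for multi-mapping fragments, or fragments over several genes, to be counted. Trimmomatic and STAR, with hg38, are named in the submitters' processing notes, without versions. One gene broken over 3 lines and the 45 PAR_Y rows (all 0) were dropped. Symbols matched 60369 of 60682 identifiers, and gene types came from GENCODE v29 and RefSeq.

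edgeR 4.0.16 (R 4.3.3) was run with filterByExpr, TMM, robust glmQLFit and the two-sided glmQLFTest, with 2 residual degrees of freedom, Benjamini-Hochberg adjustment over 14864 genes and a call at an adjusted p under 0.05. The code was checked on simulated counts. Alternatives were RLE factors, upper-quartile factors, DESeq2 1.42.0, no low-count filter, a replicate block, the table without immunoglobulin and mitochondrial genes, and each library left out. A p-value here reflects the spread among these libraries only, and that spread may be technical.

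The members, the lists and the sequence features were chosen with earlier results of these data known. Named genes were WNK1, every member, the cell type markers, and up to 2 rising and 2 falling called genes of each related list by smallest p. The genes that share bases with members were named after their values were seen. Shared bases were counted between each member's GENCODE v29 transcript with the longest coding sequence and the exons that the counts table lists for other genes. RefSeq promoters matched 52 members. A gene with several annotated starts was counted as holding a motif if any start did.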

Additional observations from a re-analysis of the deposited data

How the results depend on the processing

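Of 36 calls on members, 19 held in all 10 alternatives, and none of the 36 changed direction. With 1 library left out, rises among all genes numbered 1632 to 2778 and falls 1964 to 3024, while among members rises numbered 3 to 8, falls 18 to 32 and the median was -0.19 to -0.16. Over the same omissions eIF3 had 3 to 7 falls, eIF2B 2 to 4, eIF2 and the other carriers of initiator tRNA 2 to 4, eEF1 1 to 3, and the related genes 5 to 12 rises and 11 to 19 falls. With upper-quartile factors the median of the members was -0.15 beside 0.044 for all tested genes, where the main analysis had -0.19 beside 0.005. In eIF2, 2 falls were left both there and with DESeq2. Uncalled members changed sign with 1 library left out: EEF1AKMT2 ranged from -0.37 to 0.21, EEF1AKMT3 from -0.40 to 0.21, EIF1B from -0.07 to 0.11, EIF3F from -0.00 to 0.11 and EIF4EBP3 from -0.06 to 0.41. With the replicate number as a block, 6 members rose and 24 fell with a median of -0.19, but the deviations of same-numbered libraries did not correlate (-0.004694), so the numbers are not shown to pair them. The analysis without members of over 20% sharing and the 4 copies was chosen after seeing the data. With 2 libraries a group, small changes rest on few degrees of freedom, and the effect of shared sequence on members' counts was not tested. The cause of these changes was not tested.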
